A study of Mus musculus with 4 samples.

Results

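The response of the mouse tumour line 167 to Smarcb1 was read, gene by gene, as the log2 signal on the array of Smarcb1-infected cells minus the log2 signal on the array of empty-vector cells. These are 2 of the 4 arrays of the series, and the other pair is the same comparison in tumour line 365. Both lines were grown from soft tissue tumours, labelled MRT, that had lost Smarcb1 in Smarcb1-heterozygous, p53 null mice of a C57BL6/SV129J background. The labels call all 4 cultures deficient in p53 and the parent lines deficient in Smarcb1. Each line is 1 tumour-derived line. The control cells carried the empty pMIG retrovirus, and the other cells carried pMIG with Smarcb1. Total RNA was taken at 3 days post infection, a time the submitters chose to favour direct targets of Smarcb1. There was 1 array for each line and vector, so no value below has a replicate, an error or a test, and the number of arrays limits the precision.

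Smarcb1 is a core subunit of SWI/SNF, a chromatin remodelling complex that moves nucleosomes and opens enhancers, and its loss defines malignant rhabdoid tumours. The genes described belong to the programmes of matrix, smooth muscle, mitosis and interferon. Fibroblasts and related mesenchymal cells build an extracellular matrix from collagens, glycoproteins and proteoglycans. Smooth muscle cells and activated fibroblasts make contractile actin and its partners under the serum response factor Srf. Dividing cells turn on the genes of mitosis together, late in the cell cycle. Cells that sense interferon or nucleic acids turn on antiviral genes and antigen presentation through Irf and related transcription factors.

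The array named a single gene for probe sets of 19938 genes, and 13956 of these had a mean signal over the 4 arrays at or above the 30th percentile, log2 4.27. Below that level a signal above background was not shown, and a fold that starts there is uncertain. A difference of at least 2-fold (1 on the log2 scale) is used below as a mark of size. In line 167, 475 of the 13956 genes were at least 2-fold higher with Smarcb1 and 208 at least 2-fold lower, which is 3.4% and 1.49% of them. The median difference was -0.06, and 57.2% of the genes lay below 0. In line 365 the shares were 2.84% higher and 1.17% lower, with a median of -0.01. The median signal of the 4 arrays over all probe sets lay between log2 5.03 and 5.07.

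Smarcb1 itself stood at log2 4.61 with the empty vector and 7.83 with the Smarcb1 vector in line 167, a difference of 3.22, or 9.31-fold. Line 365 went from 6.01 to 9.61, a difference of 3.60. Both lines are thus higher on the array labelled Smarcb1. Both empty-vector values lie above the filter level of 4.27, so the array signal alone does not show the absence of Smarcb1 transcript. The sources used here name neither the part of the transcript that the probes cover nor the share of cells infected. Of 9 mesenchymal markers, 8 passed the filter, with medians in line 167 of 8.72 without and 9.41 with Smarcb1. All tested genes had medians of 7.12 and 7.05. Not every marker was bright, as the values of Thy1 below show. The intermediate filament gene Vim stood at 13.53 and 13.30 and the homeobox gene Prrx1 at 11.68 and 11.91, without and with Smarcb1. Of 8 macrophage and leukocyte markers, 2 passed the filter, and the pan-leukocyte gene Ptprc stood at 3.77 and 3.85. The endothelial marker Pecam1 (3.95 and 4.01), the epithelial marker Epcam (4.09 and 3.91) and the myogenic factor Myod1 (4.59 and 4.52) were likewise low on both arrays. Of these lists, 5 of 7 endothelial, 7 of 8 epithelial and 5 of 8 skeletal muscle markers passed the filter. Their median signals with the empty vector were 4.60, 4.88 and 5.23, and the 2 leukocyte markers had 7.01. Among the epithelial markers, 1 was at least 2-fold higher in both lines, as 1.33% of all tested genes were. Whether other cells were present was not tested. Some neuronal genes were not low, and their values differed in both directions, as described below.

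Of the 4 programmes, matrix genes held the most members past 2-fold. Of 131 matrix genes with a value, 52 were at least 2-fold higher with Smarcb1 and 0 were at least 2-fold lower. Over all genes with a value, 2.53% were at least 2-fold higher. Among the 124 that passed the filter the median difference was 0.61, with 109 above 0, against 42.8% of all tested genes above 0. In 6 of the 52, and in 9 of the 124, the control signal lay under log2 4.27. In line 365, 33 of the 124 were at least 2-fold higher and 2 lower, with a median of 0.16, and 25 were at least 2-fold higher in both lines, as 1.33% of all tested genes were. In a bulk culture, a larger share of cells that make a transcript and more transcript per cell cannot be told apart.

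**Figure D1:**
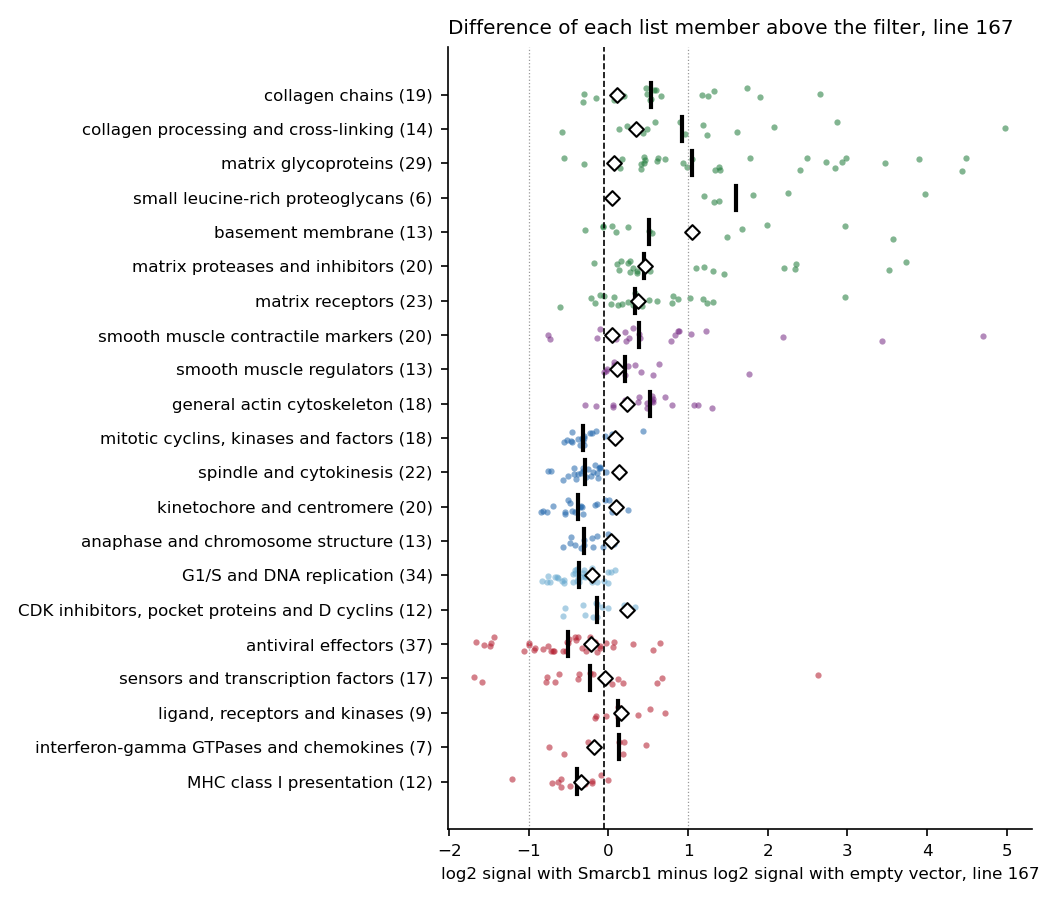
Difference in line 167 for every list member above the filter (x axis, log2 signal with Smarcb1 minus log2 signal with empty vector; 1 array each). Each point is a gene, the black bar is the list median in line 167, the open diamond the list median in line 365, the dashed line the median of all tested genes (-0.06), the dotted lines 2-fold, and the number after a name counts the points. Matrix lists lie to the right, with medians of 0.33 to 1.60, and the mitotic lists form a narrow band mostly left of 0.

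Col1a1, a chain of the type I collagen that forms the main fibrils of connective tissue, had the largest difference among collagen chains. It had a log2 signal of 7.91 with the empty vector and 10.56 with Smarcb1, a difference of 2.65 or 6.29-fold. Its partner chain Col1a2 went from 7.02 to 8.76, a difference of 1.74. Line 365 showed almost nothing for this pair, with 0.03 for Col1a1 and 0.00 for Col1a2. Col8a1, a short-chain network collagen, differed by 1.90 (5.79 to 7.70), and Col6a3, the long chain of beaded-filament type VI collagen, by 1.33 (5.55 to 6.88). Its partner chains did not follow in line 167, as Col6a1 gave -0.30 and Col6a2 -0.32. The fibrillar chain Col3a1 differed by 0.53. Of the 19 collagen chains, 6 were at least 2-fold higher, where 3.4% of all tested genes were. The list median was 0.54, and the median in line 365 was 0.10.

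Genes of collagen processing and cross-linking were mostly higher as well, 13 of 14 above 0 and 6 at least 2-fold higher. Over all tested genes the shares were 42.8% and 3.4%. Pcolce, which enhances the cleavage of the procollagen C-propeptide, had the largest matrix difference, from 5.99 to 10.98, or 4.98 (31.7-fold), against 1.01 in line 365. Bmp1, the protease that makes this cut, went from 7.83 to 9.44, a difference of 1.61. The enhancer and its protease were both higher in both lines, since Bmp1 differed by 1.33 in line 365. Loxl1, a lysyl oxidase-like enzyme tied to elastic fibres, differed by 2.87 (6.49 to 9.36). Tgm2, a transglutaminase that cross-links matrix proteins, differed by 2.07 (6.74 to 8.82), close to its 1.84 in line 365. The list median was 0.93 over 14 genes, and its lowest member was the prolyl hydroxylase gene P4ha3 at -0.58.

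The adhesive glycoproteins gave the longest series of large differences, with 15 of 29 genes at least 2-fold higher, where 3.4% of all tested genes were. Their median was 1.05, against 0.07 in line 365. Fn1, the fibronectin that cells assemble into fibrils through integrins, went from 7.93 to 11.82, a difference of 3.90 (14.9-fold). Igfbp7, an insulin-like growth factor binding protein, went from 5.35 to 9.85 (4.49), and Aebp1, a secreted protein that binds collagen, from 4.79 to 9.23 (4.44). Thbs2, a matricellular thrombospondin, went from 4.74 to 8.21, a difference of 3.47, and gave -0.09 in line 365. Tnc, the tenascin of wounds and tumour stroma, went from 3.99 to 6.92 (2.93) from a control below the filter level.

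A set of 3 further glycoprotein genes, picked after their values were seen, had large values in line 167 beside almost none in line 365. Ccn2, the connective tissue growth factor gene, differed by 2.98 (7.79 to 10.77) against 0.07. Thbs1, a thrombospondin that can activate latent TGF-beta, differed by 2.41 (9.83 to 12.24) against 0.09. Ccn1, a matricellular relative of Ccn2, differed by 1.40 against -0.19. The motif of TEAD factors, GGAATG, searched on both strands, was found in the 300-base promoter windows of 12 of 90 tested matrix genes with a window (13.3%), near the 14.3% of all tested genes and the 16.6% of all 27025 genes in the promoter table. Ccn1 is one of the 12, and Ccn2 and Thbs1 are not among the 90. The matching genes had a median difference of 0.53 in line 167 and the others 0.59.

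Small leucine-rich proteoglycans bind collagen fibrils and set their thickness. Bgn (biglycan) went from 4.78 to 8.75, a difference of 3.97 or 15.7-fold. Fmod (fibromodulin) differed by 2.26 (5.02 to 7.28), Ogn (osteoglycin) by 1.39 (8.85 to 10.24) and Dcn (decorin) by 1.82, from a control at 3.99 that lay below the filter level. In line 365 Bgn was higher by 1.15, and Fmod, Dcn and Ogn by -0.14, 0.09 and -0.25. Of 8 such genes with a value, 6 were at least 2-fold higher in line 167, where 2.53% of all genes with a value were. The others, Omd and Lum, lay below the filter and gave 0.61 and -0.04. The median of the 8 was 1.36.

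Basement membrane genes split by subunit. Nid1, the nidogen that links laminin to type IV collagen, went from 5.83 to 9.41 (3.58), and its relative Nid2 from 6.05 to 7.73 (1.68). Lama4, a laminin alpha chain of vessels and muscle, went from 4.50 to 6.49 (1.99), and Tinagl1, a matrix protein of the tubulointerstitial nephritis antigen family, from 6.68 to 9.64 (2.96). Some members high in line 365 did not differ in line 167. Hspg2 (perlecan), which was looked at because of this contrast, gave 0.05 in line 167 (9.28 to 9.33) and 2.30 in line 365. Over 13 genes the median was 0.51 in line 167 and 1.05 in line 365, and the difference between the lines was not tested.

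Matrix proteases and their inhibitors had 9 of 20 genes at least 2-fold higher, as 3.4% of all tested genes were, and a median of 0.44. In 3 of the 9 the control signal lay under log2 4.27. The median was 0.81 when the filter was set on the line 167 arrays alone. That filter uses the same 2 arrays as the difference, so a gene can pass through its Smarcb1 signal. The main filter averages the 4 arrays and includes that signal too, so a gene can pass it in the same way. Mmp3 (stromelysin) went from 3.93 to 7.66, a difference of 3.74 from a control below the filter level, and by 5.45 in line 365. Adamts9, a secreted metalloprotease that cleaves versican and aggrecan, went from 6.17 to 9.69 (3.52), and its 6 probe sets gave 2.30 to 4.36. Plat, the tissue plasminogen activator, differed by 2.35 (5.11 to 7.47) and Mmp19 by 2.34 (4.84 to 7.18), against 0.43 and 0.72 in line 365.

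Among matrix receptors, Sdc3, a heparan sulphate proteoglycan of the cell surface, differed by 2.97 (5.68 to 8.65). Integrin alpha chains that bind collagen (Itga1, 1.31), fibronectin (Itga5, 1.24) and laminin (Itga3, 1.19) were higher, whereas the beta chain they share, Itgb1, gave 0.07 (11.76 to 11.83). The integrin alpha chain Itga11, another collagen receptor, gave -0.61. The list median was 0.33 over 23 genes, and 0.56 with the filter at the 50th percentile. Of the 23, 5 were at least 2-fold higher, where 3.4% of all tested genes were.

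Smooth muscle contractile genes ranged from large positive differences to moderate negative ones. Of 23 with a value, 5 were at least 2-fold higher in line 167 (Acta2, Tagln, Actg2, Myl9 and Cald1) and 0 at least 2-fold lower, where 2.53% and 1.08% of all genes with a value were. Of the 20 above the filter, 16 lay above 0, where 42.8% of all tested genes did. At least 1.5-fold higher were 9 of the 20, and 2 were at least 1.5-fold lower. Over all 13956 tested genes, 967 were at least 1.5-fold higher and 1089 (7.8%) at least 1.5-fold lower. Acta2, the smooth muscle alpha-actin gene that also marks myofibroblasts, went from 6.11 to 10.81, a difference of 4.70 or 26-fold. In line 365 Acta2 was lower with Smarcb1, at 5.83 and 5.14 (-0.68). Tagln, an actin cross-linking protein also called SM22, went from 5.71 to 9.15, a difference of 3.43 (10.8-fold), against 0.40 in line 365. Actg2, the enteric smooth muscle actin, went from 3.73, below the filter level, to 5.93 (2.20), against -0.13. Myl9, a regulatory myosin light chain, differed by 1.22 (7.58 to 8.80) and Cald1 (caldesmon), which binds actin and tropomyosin, by 1.03 (9.77 to 10.80). Actin genes have close relatives, and signal from one on the probes of another is not separated here.

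The other contractile genes gave smaller values in both directions. The tropomyosin genes Tpm1 and Tpm2 differed by 0.88 each, the smoothelin gene Smtn by 0.40, the leiomodin gene Lmod1 by 0.38 and the myosin light chain kinase gene Mylk by 0.31. Cnn1 (calponin) stood at 7.11 and 7.20, a difference of 0.10. Myh11, the smooth muscle myosin heavy chain, stood at 5.37 and 5.23 (-0.14). Ppp1r12b and Ppp1r14a, a targeting subunit and an inhibitor of myosin phosphatase, gave -0.76 and -0.74. The probe sets of Ppp1r12b ranged from -1.07 to 0.04, so its value depends on the probe set taken. The contractile list had a median of 0.39 over the 20 genes above the filter and 0.05 in line 365, and 0.88 in line 167 with the filter at the 50th percentile.

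**Figure D2:**
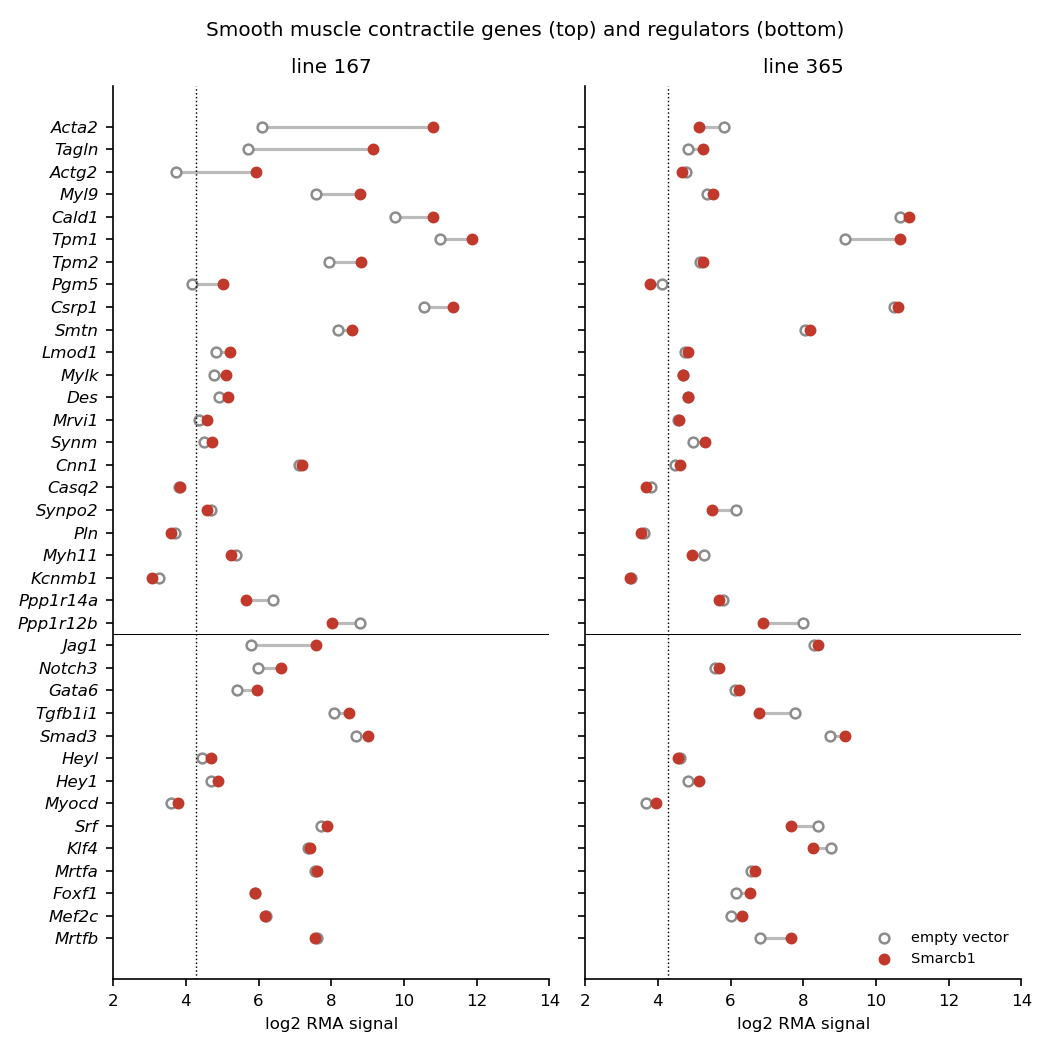
Log2 signal of smooth muscle contractile genes (above the horizontal line) and regulators (below it) in line 167 (left) and line 365 (right). Open circles are the empty-vector array, filled circles the Smarcb1 array, and the dotted vertical line is the filter level, log2 4.27. Acta2 and Tagln have the longest bars in line 167 and short bars in line 365, and Cnn1, Myh11 and Srf are close to their control in line 167.

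The regulators of this programme differed little. Srf, which binds CArG boxes in muscle promoters, stood at 7.73 and 7.89 (0.17). Its coactivator Myocd (myocardin) stood at 3.59 and 3.77, below the filter level on both arrays, and the related coactivators Mrtfa and Mrtfb gave 0.06 and -0.06. Jag1, a Notch ligand, was the exception in the list, at 5.80 and 7.57 (1.77, against 0.11 in line 365), and its receptor Notch3 differed by 0.64 (5.98 to 6.61). Gata6, a transcription factor of visceral mesoderm and vessels, differed by 0.55, and Tgfb1i1, a focal adhesion coactivator also called Hic-5, by 0.41 against -0.98 in line 365. Over 13 regulators the median was 0.20, with 1 at least 2-fold higher, where 3.4% of all tested genes were.

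General actin cytoskeleton genes, which most adherent cells express, had a median of 0.52 over 18 genes, and 0.23 in line 365. Of the 18, 3 were at least 2-fold higher in line 167, where 3.4% of all tested genes were. Fhl2, a LIM-domain coactivator at focal adhesions, differed by 1.29 (7.66 to 8.96) in line 167 and 1.38 in line 365. Filip1l, a regulator of cell motility, differed by 1.12 (7.43 to 8.56), or 0.90 as the mean of its probe sets. Vcl (vinculin), which ties integrins to actin, differed by 1.07 (9.72 to 10.79). Actb, the cytoplasmic beta-actin, stood at 13.42 and 13.47 (0.05).

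The promoters of Acta2 and Myl9 are shown because both genes were at least 2-fold higher in line 167 and both windows hold CArG-type boxes, the elements Srf binds. The sequences are the 250 bases before the RefSeq transcript start, 5′ to 3′ on the gene's strand, in build GRCm38.p6. Capitals mark CArG-like boxes, a pattern that allows 1 G or C among the 6 central bases and that was added after the strict box was not found in Acta2. Acta2 lies at chr19:34255374-34255623 (minus strand) and Myl9 at chr2:156775214-156775463 (plus strand).
Acta2: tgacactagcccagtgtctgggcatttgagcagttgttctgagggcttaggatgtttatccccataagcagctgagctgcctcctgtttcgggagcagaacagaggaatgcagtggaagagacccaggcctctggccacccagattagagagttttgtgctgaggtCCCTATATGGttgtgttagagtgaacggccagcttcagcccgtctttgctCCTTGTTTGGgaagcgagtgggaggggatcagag
Myl9: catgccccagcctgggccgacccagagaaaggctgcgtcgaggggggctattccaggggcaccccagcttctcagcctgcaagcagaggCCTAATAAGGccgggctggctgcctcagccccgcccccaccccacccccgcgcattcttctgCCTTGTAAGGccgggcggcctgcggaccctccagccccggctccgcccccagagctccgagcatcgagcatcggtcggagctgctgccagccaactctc
Acta2 holds matches 84 to 75 and 34 to 25 bases before the start, and Myl9 at 161 to 152 and 99 to 90. The strict CArG box was found in the 300-base windows (250 bases before to 50 after the start, both strands) of 8 of 41 tested smooth muscle genes with a window (19.5%), against 1.60% of all tested genes and 1.81% of all 27025 genes in the table. The box was in 6 of 16 general actin cytoskeleton genes, 1 of 8 regulators (Srf itself) and 1 of 17 contractile genes (Myl9), so most of the matches belong to the general actin list. Tagln and Actg2 are not among the 41. The looser pattern, which takes in the strict one, was found in 12 of the 41 (29.3%), against 11.3%. Smooth muscle genes with the strict box had a median difference of 0.89 in line 167 and those without it 0.37, and in line 365 of 0.37 and 0.11. Over all tested genes the medians with and without it in line 167 were -0.03 and -0.06. A match is a run of letters and not a site shown to be bound.

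Mitotic genes were slightly lower in line 167. Of 73 genes, 67 lay below 0 with Smarcb1, where 57.2% of all tested genes did, and the median was -0.32. None of them (0 of 73) reached 2-fold in either direction, and 6 were at least 1.5-fold lower, near the 7.8% of all tested genes. In line 365 the median was 0.10, with 47 of the 73 above 0, where 49.1% of all tested genes were. Lower in line 167 and higher in line 365 were 41 of 73, against 23% of all tested genes. Whether the lines differ was not tested.

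Among cyclins, kinases and their regulators, Aurkb, the chromosomal passenger kinase, gave -0.56 (10.04 to 9.49), and Mki67, the proliferation marker Ki-67 that coats mitotic chromosomes, gave -0.52 (9.73 to 9.21). Wee1, which holds Cdk1 inactive, gave -0.46 (9.99 to 9.53), and the opposing phosphatase Cdc25c gave -0.47 (7.77 to 7.30). Cdk1, the kinase that drives entry into mitosis, stood at 10.29 and 9.96 (-0.33). Plk1, the polo-like kinase, was not lower, at 9.61 and 9.65 (0.05), and the phosphatase gene Cdc25b gave 0.44 (8.91 to 9.34). The list median was -0.31 over 18 genes, against 0.08 in line 365.

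The spindle and cytokinesis genes were below 0 in all 22 cases, with a median of -0.30 and a range of -0.76 to -0.03. Nusap1, which bundles spindle microtubules, gave -0.76 (9.25 to 8.49) and the kinesin gene Kif15 gave -0.72 (8.78 to 8.06). Kif20a, a kinesin of the cytokinetic midzone, gave -0.57 (10.42 to 9.86) and Hmmr, a spindle assembly factor that binds hyaluronan, -0.51 (9.15 to 8.64). In line 365 the same genes gave 0.24, -0.02, 0.23 and 0.12, and the list median was 0.14.

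Kinetochore genes held the lowest values of the group. Spc24, a subunit of the Ndc80 complex that grips microtubules, gave -0.84 (9.16 to 8.32), and Ska1 and Ska3, subunits of the Ska complex that joins it, gave -0.82 (6.31 to 5.49) and -0.70 (9.78 to 9.09). Knl1, the scaffold of the spindle checkpoint, gave -0.77 (9.16 to 8.39). Ndc80 itself gave -0.54 in line 167 and 0.31 in line 365, and Cenpf, a large kinetochore protein, -0.46 and 0.45, which put both among the members with the widest gap between the lines. The list median was -0.39 over 20 genes, 17 of them below 0.

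Among anaphase and chromosome structure genes, Pttg1 (securin), the inhibitor of separase, gave -0.57 (8.24 to 7.67). Fbxo5, an inhibitor of the anaphase-promoting complex, gave -0.48 (9.19 to 8.72), its activator Cdc20 -0.47 (9.21 to 8.74) and the condensin subunit Ncaph -0.42 (9.58 to 9.16). The median was -0.31 over 13 genes and 0.03 in line 365.

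Genes of the G1/S transition and of DNA replication, taken as a neighbouring list, had a median of -0.37 over 34 genes in line 167, with 32 below 0, and -0.20 in line 365. A list of 12 CDK inhibitors, pocket proteins and D cyclins had a median of -0.15, against 0.23 in line 365. The mitotic genes are bright on these arrays, with 45 of 73 in the brightest of 5 equal groups of all tested genes by mean signal. In line 167 that group had a median difference of -0.10 with 66.2% below 0, and the dimmest group a median of 0.06. The part of signal level in the mitotic values was not tested. With the empty vector, line 167 was above line 365 in 55 of 73 mitotic genes, and with Smarcb1 in 24, where the shares over all tested genes were 53% and 49.6%.

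The promoters of Cdk1 and Mki67 are shown as examples of the motif pair of late cell cycle genes, the cell cycle genes homology region (CHR, TTTGAA) and the CCAAT box (CCAAT, which reads ATTGG on the other strand). Capitals mark both motifs on either strand in the 250 bases before the start (RefSeq, GRCm38.p6). Cdk1 lies at chr10:69352913-69353162 and Mki67 at chr7:135716380-135716629, both on the minus strand.
Cdk1: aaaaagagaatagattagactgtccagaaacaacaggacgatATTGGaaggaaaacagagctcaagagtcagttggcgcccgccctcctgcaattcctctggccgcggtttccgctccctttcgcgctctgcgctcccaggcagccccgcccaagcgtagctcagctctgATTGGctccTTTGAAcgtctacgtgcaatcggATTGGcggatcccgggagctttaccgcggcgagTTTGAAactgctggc
Mki67: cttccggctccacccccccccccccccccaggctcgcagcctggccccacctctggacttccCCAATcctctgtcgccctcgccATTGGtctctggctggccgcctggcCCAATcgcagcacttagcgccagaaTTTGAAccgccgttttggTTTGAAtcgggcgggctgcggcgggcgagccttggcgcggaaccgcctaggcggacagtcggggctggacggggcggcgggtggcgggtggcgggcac
Cdk1 holds CHR letters 71 to 66 and 15 to 10 bases before the start, and Mki67 at 116 to 111 and 98 to 93, and each has 3 CCAAT boxes. Of 61 mitotic genes with a 300-base window, 42 held the CHR (68.9%), against 13.8% of all tested genes and 20.2% of all genes in the table. In the 250 bases before the start alone the share was 36.1%, against 12.4% of all tested genes and 18.3% of all genes in the table. The CCAAT box was found in 46 of the 61 (75.4%), against 42.2% and 41.1%. Mitotic genes with and without the CHR had the same median in line 167, -0.32 in each case.

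Most interferon genes were lower in line 167, though values above 0 made up 21 of 82, and 2 of the 5 lists had medians above 0. Of 89 genes with a value, 11 were at least 2-fold lower and 1 at least 2-fold higher. Over all genes with a value, 1.08% were at least 2-fold lower and 2.53% at least 2-fold higher. Above the filter 61 of 82 lay below 0, where 57.2% of all tested genes did. The median of the 82 was -0.30, and -0.12 in line 365. By mean signal, 54 of the 82 were in the brightest 3 of 5 equal groups of all tested genes. In those groups 63.7% to 66.2% of genes lay below 0 in line 167. The part of signal level in the interferon values was not tested. The median over genes of the difference between the lines was -0.28, or -0.17 without the filter, and was not tested. With the empty vector, line 167 was above line 365 in 64 of the 82 genes, and with Smarcb1 in 57. Over all tested genes the shares were 53% and 49.6%. The median of line 167 minus line 365 was 0.47 with the empty vector and 0.30 with Smarcb1.

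Antiviral effectors made up most of the lower genes. Ifit1, which binds viral RNA that lacks a host cap, went from 7.98 to 6.32, a difference of -1.66 or 3.15-fold lower, and gave -1.03 in line 365. Its relative Ifit3 went from 7.41 to 5.93 (-1.48) and gave -1.31 in line 365. Both Ifit genes were thus at least 2-fold lower in both lines, as 0.186% of all tested genes were. Ifi27l2a, an interferon-induced mitochondrial protein, gave -1.56 (7.98 to 6.41). Usp18, which removes Isg15 from proteins and dampens receptor signalling, gave -1.48 (6.40 to 4.93) in line 167 and 0.16 in line 365. Of 40 effectors with a value, 8 were at least 2-fold lower and 0 higher, where 1.08% and 2.53% of all genes with a value were. The median over the 37 above the filter was -0.51, and -0.22 in line 365.

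Among transcription factors and sensors, the interferon-induced factor Irf7 went from 7.07 to 5.39, a difference of -1.69, and gave 0.13 in line 365. Irf9, a DNA-binding factor of the interferon response, gave -0.79 (8.63 to 7.84), and Dhx58, a regulator of the RNA sensors, -1.59 (8.02 to 6.43). Sting1, the adaptor that carries the signal of cytosolic DNA, ran the other way, from 4.80 to 7.42 (2.63, or 6.17-fold), with 0.82 in line 365. The list thus held both the lowest and the highest value of the interferon genes. Its median was -0.23 over 17 genes, and -0.37 with the filter at the 50th percentile.

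The ligand and its signalling chain were not lower. Ifnb1, the interferon beta gene, stood at 3.52 and 3.76, below the filter level on both arrays. The receptor chain Ifnar2 differed by 0.52 (8.41 to 8.92) and the kinase Jak1 by 0.71 (10.07 to 10.78), while the kinase Tyk2 gave -0.16. Socs3, a feedback inhibitor of cytokine receptors, gave 0.37 in line 167 and -1.76 in line 365. The list median was 0.12 over 9 genes.

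Genes tied to interferon gamma gave mixed values, with a median of 0.14 over 7 genes that became -0.26 with the filter at the 50th percentile. The GTPase genes Gbp7 and Irgm1 gave -0.75 and -0.56 and Gbp3 gave 0.47. The chemokine gene Cxcl10 stood at 6.25 and 6.38 (0.14) in line 167 and at 9.45 and 6.90 (-2.54) in line 365, the widest gap between the lines in the interferon group. Ccl5, another chemokine gene, gave -0.26 (8.65 to 8.40).

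Class I antigen presentation genes lay below 0 in all 12 cases, where 57.2% of all tested genes did. The median of the 12 was -0.39, beside -0.35 in line 365. Tap1, one chain of the peptide transporter, went from 7.17 to 5.96 (-1.22), and its partner Tap2 gave -0.60 (7.69 to 7.09). Tapbp (tapasin), which loads peptides, gave -0.63 (10.90 to 10.27) and the immunoproteasome subunit Psmb9 -0.71 (6.82 to 6.11). In line 365 these 4 genes gave -0.52, -0.68, -0.46 and -0.09.

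Promoters of 3 antiviral genes are shown because they share the core of the interferon-stimulated response element (ISRE: GAAA, then any 2 bases, then GAAA, which appears here as its reverse complement) and had different values. Ifit1 and Ifit3 were lower in line 167, whereas Rsad2 (viperin), chosen after its value was seen, gave 0.31 (5.04 to 5.35). Capitals mark the core in the 250 bases before the start (RefSeq, GRCm38.p6). Ifit1 lies at chr19:34640639-34640888 and Ifit3 at chr19:34583279-34583528, both on the plus strand, and Rsad2 at chr12:26456453-26456702 on the minus strand.
Ifit1: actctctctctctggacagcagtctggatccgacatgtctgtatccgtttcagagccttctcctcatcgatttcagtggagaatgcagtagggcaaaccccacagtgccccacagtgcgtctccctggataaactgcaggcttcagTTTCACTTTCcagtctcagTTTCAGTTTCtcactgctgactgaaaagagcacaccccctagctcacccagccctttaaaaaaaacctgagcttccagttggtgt
Ifit3: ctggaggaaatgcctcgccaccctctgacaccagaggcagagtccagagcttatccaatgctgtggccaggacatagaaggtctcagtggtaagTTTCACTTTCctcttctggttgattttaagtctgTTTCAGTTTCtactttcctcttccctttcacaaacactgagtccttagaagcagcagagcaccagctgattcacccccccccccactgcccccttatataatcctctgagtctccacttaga
Rsad2: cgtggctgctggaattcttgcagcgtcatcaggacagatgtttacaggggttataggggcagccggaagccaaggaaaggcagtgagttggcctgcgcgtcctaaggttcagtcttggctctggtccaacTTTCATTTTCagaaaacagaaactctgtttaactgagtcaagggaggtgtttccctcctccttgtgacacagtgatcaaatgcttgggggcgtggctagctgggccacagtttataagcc
Ifit1 holds the core 104 to 95 and 85 to 76 bases before the start, Ifit3 at 156 to 147 and 122 to 113, and Rsad2 at 120 to 111. Of 66 tested interferon genes with a 300-base window, 22 held the core on either strand (33.3%), against 3.41% of all tested genes and 3.99% of all genes in the table. Those with it had a median difference of -0.43 in line 167 and those without it -0.20. In the 250 bases before the start alone, 16 of the 66 held it (24.2%), and the medians were -0.33 and -0.22. Over all tested genes the medians with and without it were -0.05 and -0.06. The lists differed in this, again in the 300-base window. The medians with and without the core were -0.52 and -0.41 for antiviral effectors and -0.63 and -0.20 for sensors and transcription factors. They were -0.21 and 0.18 for interferon-gamma genes, 0.14 and 0.12 for the ligand and its signalling chain, and -0.20 and -0.60 for class I presentation. Irf7 held no match. The part of list membership was not tested.

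**Figure D3:**
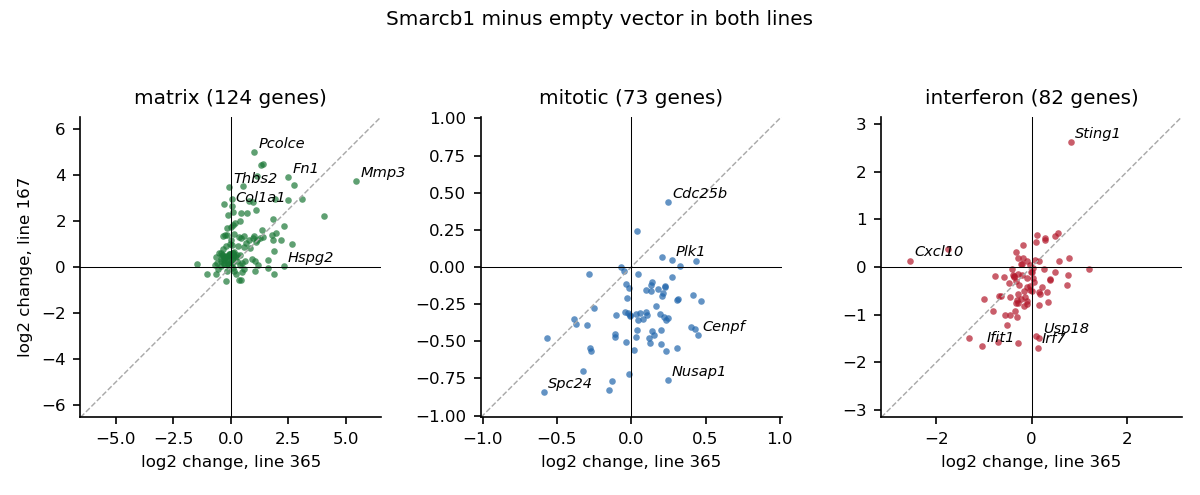
Log2 difference (Smarcb1 minus empty vector) of each tested matrix, mitotic and interferon gene in line 365 (x axis) and line 167 (y axis), with scales that differ between panels. Each point is a gene and the dashed diagonal marks equal values. Matrix genes lie mostly above 0 on the y axis (109 of 124), mitotic genes mostly below it (67 of 73) and within 1 log2 unit, and Irf7 and Usp18 lie low in line 167 at x values near 0.

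The 12 largest positive differences of line 167 included 2 genes described above, Pcolce and Acta2, and 10 from outside these programmes. Lcn2 (lipocalin 2), an iron-siderophore binding protein of the acute phase, had the largest of all tested genes, from 5.57 to 11.65, a difference of 6.08 or 67.8-fold, against 0.85 in line 365. Lbp, which binds bacterial lipopolysaccharide, went from 4.32 to 9.47 (5.15), against 0.33. Saa3, an acute-phase serum amyloid A, went from below the filter level to 8.74 (4.73), and gave -0.30 in line 365. Cp (ceruloplasmin), a copper-carrying ferroxidase, went from 4.22 to 9.54 (5.32), against 2.93.

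Cyp1b1, a cytochrome P450 of steroid and xenobiotic metabolism, went from 4.77 to 9.96 (5.19) in line 167. In line 365 it was already at 9.83 with the empty vector and stood at 10.17 with Smarcb1. Sema3c, a secreted guidance cue, differed by 5.06 from a control at 4.20, and Nrn1 (neuritin), a cell-surface protein that promotes neurite outgrowth, by 4.95 from 4.54. Both were also higher in line 365, by 2.52 and 3.05. Npr3, the clearance receptor for natriuretic peptides, differed by 4.62 (5.13 to 9.76), Tmem176b, a membrane protein of the endolysosomal system, by 4.54 (6.36 to 10.90), and Emb (embigin), an adhesion protein, by 4.50 from 4.20. In line 365 they differed by 0.68, 3.35 and 0.63.

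**Figure D4:**
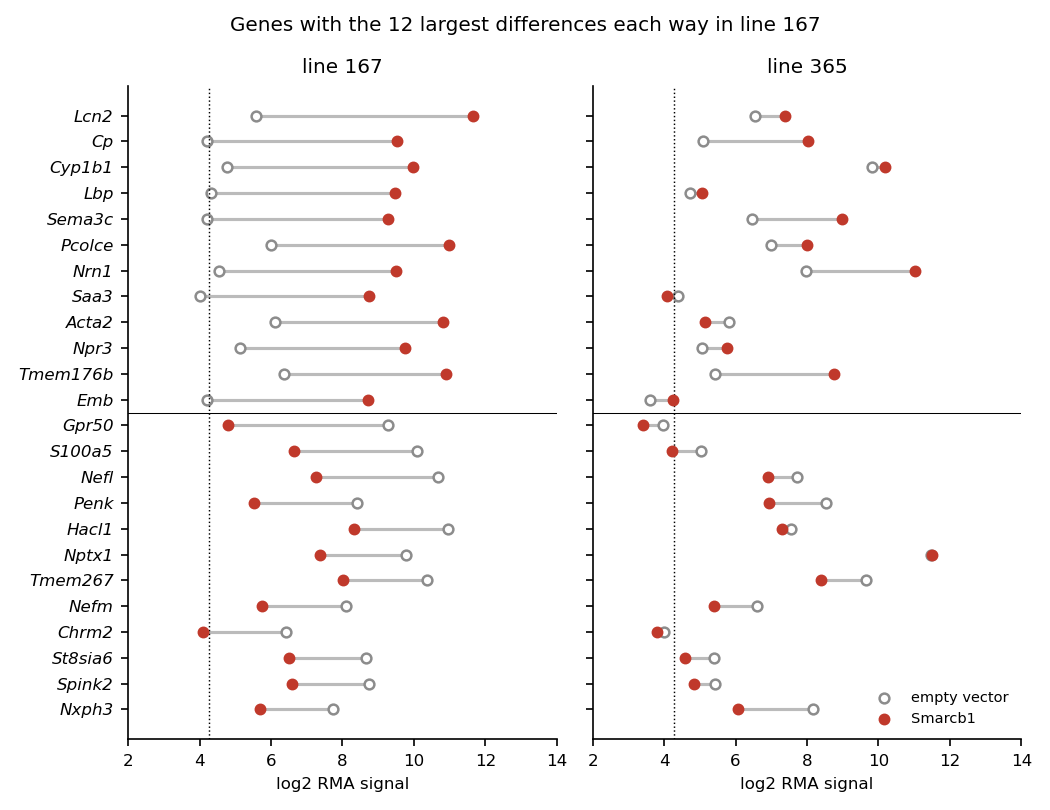
Log2 signal of the 12 genes with the largest positive differences (above the horizontal line) and the 12 with the largest negative differences (below it) in line 167, shown for line 167 (left) and line 365 (right). Open circles are the empty-vector array, filled circles the Smarcb1 array, and the dotted line is the filter level, log2 4.27. The genes were ranked on line 167, so the long bars there follow from the choice. In the right panel every bar is shorter than on the left, such as Tmem176b (3.35 against 4.54), except that of Nxph3 (-2.10 against -2.04).

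None of the 12 largest negative differences belonged to the programmes above. Gpr50, an orphan receptor related to the melatonin receptors, had the lowest value of all tested genes, from 9.28 to 4.80, a difference of -4.49 or 22.4-fold lower. In line 365 it lay below the filter level on both arrays (3.96 and 3.42). The neurofilament genes Nefl and Nefm, which give axons their calibre, gave -3.42 (10.68 to 7.26) and -2.36 (8.09 to 5.73), with -0.83 and -1.20 in line 365. Penk, the enkephalin precursor, gave -2.88 (8.41 to 5.53) and Nxph3, a secreted neurexin ligand, -2.04 (7.73 to 5.69), with -1.60 and -2.10 in line 365.

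Several low values belonged to genes with other roles. S100a5, a calcium-binding protein, gave -3.43 (10.08 to 6.65). Hacl1, a peroxisomal lyase of fatty acid alpha-oxidation, gave -2.61 (10.94 to 8.33), with -0.25 in line 365. Nptx1, a neuronal pentraxin of synapses, gave -2.41 (9.79 to 7.38) in line 167 and 0.03 (11.47 to 11.50) in line 365. The muscarinic receptor gene Chrm2 gave -2.34 (6.43 to 4.09), the sialyltransferase gene St8sia6 -2.17 (8.67 to 6.50), the protease inhibitor gene Spink2 -2.14 (8.73 to 6.59) and Tmem267 -2.37 (10.38 to 8.01).

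The neuronal marker list did not move one way. Beside Nefl and Nefm, the microtubule regulator gene Stmn2 differed by 2.21 (6.64 to 8.85) and the class III beta-tubulin gene Tubb3 by 1.74 (5.05 to 6.80), and the synaptic vesicle gene Syp gave -0.70 (5.85 to 5.15). Of its 8 genes, 7 passed the filter, with 2 at least 2-fold higher and 2 at least 2-fold lower. Over all tested genes the shares were 3.4% and 1.49%. The mesenchymal markers had a median of 0.51 over 8 tested genes, with the fibroblast surface gene Thy1 at 1.30 (4.97 to 6.27), the transcription factor Twist1 at 1.16 (7.90 to 9.06) and the growth factor receptor Pdgfra at 0.97 (8.50 to 9.47). In line 365 their median was 0.03. The part of cell composition in the matrix and smooth muscle values was not tested.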

How the data were processed

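Per the submitters' processing notes, the authors made the deposited values with RMA in Affymetrix Expression Console. RMA subtracts background, gives all arrays 1 distribution and summarises probes into probe sets, so a change in total RNA per cell is not visible. The deposited values were log2 signals of 35556 probe sets on 4 arrays and were used as they stand. The software versions, settings and genome build were not given in the sources used here.

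Gene names came from the platform annotation: 21789 probe sets had 1 symbol, 1621 several, and the rest were not listed and are not named here. Of the 999 genes with several probe sets, the probe set brightest on average was taken. Genes whose mean fell under the 30th percentile were left out of medians and counts of tested genes. The result of each gene is the log2 difference, Smarcb1 minus empty vector, within a line. With 1 array a side, no test was run. The lists of the 4 themes held 373 entries in 19 lists, of which 348 had a value and 330 passed the filter, after 10 names were updated through RefSeq synonyms. Entries without a value, such as Isg15, Ccnb1 and Cdkn1a, are not analysed here.

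Named genes were Smarcb1, up to 4 members with the largest absolute difference per list, defining members of each theme, the 12 largest positive and negative differences of line 167 among brighter genes, and per theme the 3 members with the widest gap between lines. Predicted genes and olfactory or vomeronasal receptors were passed over in the ranked part. Other genes named were chosen after their values were seen, to show where a list is mixed. The lists, members and rule were chosen with earlier results of these data known, and support nothing beyond description. Promoter windows (250 bases before to 50 after a start) are RefSeq's, build GRCm38.p6, matched by gene identifier. Analyses used Python 3.11.15, pandas 2.3.3, numpy 2.4.6, matplotlib 3.10.9, and limma 3.58.1 in R 4.3.3 for cyclic loess, and were tested on simulated data. Alternatives were other normalizations, centring, filters, probe set rules, fold thresholds and promoter windows.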

Additional observations from a re-analysis of the deposited data

Results flagged for a closer look

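For 4 results, the value had opposite signs in the 2 lines, with 1 array for each line and vector, and in no case was the difference between the lines tested. Acta2 differed by 4.70 in line 167 and by -0.68 in line 365, a gap of 5.39 on the log2 scale. The median of the spindle and cytokinesis genes was -0.30 in line 167 and 0.14 in line 365, a gap of -0.44. The median of CDK inhibitors, pocket proteins and D cyclins was -0.15 and 0.23, a gap of -0.38. The median of the interferon-gamma GTPases and chemokines was 0.14 and -0.18, a gap of 0.32, and its sign in line 167 turned with a stricter filter on dim genes.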

How the results depend on the processing

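No paired analysis was possible because each line and vector has 1 array and no replicate number, and for the same reason no replicate could be left out. Of 289 recomputed list and count values, 264 stayed within the set tolerance (0.1 for a list median, 1.5 times for a count), 24 moved and 1 changed sign. Of 777 recomputed single-gene values, 775 stayed within it, and the exceptions were Ifnar2 (0.62 after cyclic loess) and Filip1l (0.90 as a mean of probe sets). Centring each array on its median moved the median gap between the lines to 0.57 for matrix, 0.38 for smooth muscle, -0.26 for mitotic and -0.18 for interferon genes. Without a filter, the proteoglycan median was 1.36, the basement membrane median 0.36 and the interferon gap -0.17. With the filter at the 50th percentile, medians were 1.39 for glycoproteins, 1.39 for proteoglycans, 0.38 for basement membrane, 0.56 for matrix receptors, 0.88 for contractile genes and -0.37 for sensors and transcription factors. At that filter the interferon-gamma list turned to -0.26, and 0 interferon genes were at least 2-fold higher. The cause was not tested, beyond fewer genes entering. With the filter on line 167 alone, which uses the arrays that give the difference, the protease median was 0.81. At 1.5-fold, 967 genes were higher and 1089 lower, with 1 matrix gene lower, 16 smooth muscle genes higher and 2 lower, 6 mitotic genes lower, and 5 interferon genes higher and 27 lower. The share of mitotic promoters with the CHR was 36.1% in the 250 bases before the start. Medians of the 4 mitotic lists stayed between -0.39 and -0.21 and that of antiviral effectors between -0.53 and -0.42 under the alternatives run. Dim controls limit the size of the largest folds.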

Other observations

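The lists in this section were put together after the values were seen, so their counts describe line 167 and support nothing. Over all genes with a value, 2.53% were at least 2-fold higher. Of the 12 largest positive differences of the line, 4 belonged to acute-phase and inflammatory genes (Lcn2, Lbp, Saa3 and Cp). Of 29 such genes with a value, 9 were at least 2-fold higher with Smarcb1 (beside that 2.53%), and the median over all 29 was 0.24. Beside these, the neutrophil chemokine gene Cxcl5 went from 5.11 to 9.53, a difference of 4.43, against 0.60 in line 365. Il1rn, the interleukin-1 receptor antagonist, went from 5.17 to 9.06, a difference of 3.89, against -0.38. The transcription factor Cebpd went from 3.88, below the filter level, to 5.54 (1.65). The cytokine genes Il6 (3.03 and 3.23), Tnf (3.75 and 3.93) and Il1b (3.98 and 3.83) lay below the filter level on both arrays of line 167, and Cxcl1, a close relative of Cxcl5, differed by 0.24 (7.37 to 7.61).

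Hyaluronan genes gave 3 of 9 at least 2-fold higher, beside 2.53% of all genes with a value. Has2, the synthase that makes most hyaluronan in mesenchyme, went from 3.88 to 8.26 (4.38, against 1.99 in line 365). The hyaluronan-binding Tnfaip6 went from 4.25 to 6.17 (1.92) and Cemip, which takes part in its breakdown, from 4.02 to 5.91 (1.90), against -0.05 and -0.03 in line 365. All 3 started below the filter level. In the retinoid genes, 4 of 15 were at least 2-fold higher (2.53% of all genes). The retinal reductase gene Dhrs3 went from 5.67 to 9.71 (4.04, against 2.84), the retinaldehyde dehydrogenase gene Aldh1a1 from 4.28 to 6.82 (2.54, against 1.61), and the retinol uptake receptor gene Stra6 from 5.13 to 6.78 (1.65, against 0.16). Crabp1, a retinoic acid binding protein, gave -0.82 (10.72 to 9.90).

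Of 9 genes of TGF-beta signalling, 4 were at least 2-fold higher (2.53% of all genes). The ligand genes Tgfb3, Tgfb2 and Inhba differed by 2.02 (8.14 to 10.16), 1.12 (4.41 to 5.53) and 1.59 (6.20 to 7.79), and the feedback gene Skil by 1.06 (7.67 to 8.73). In line 365 these 4 genes gave 0.28, -1.35, 0.48 and -0.02. Tgfb1 stood at 8.62 and 8.62 in line 167 (-0.01), and the receptor genes Tgfbr1 and Tgfbr2 differed by 0.04 and 0.01.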
